A study of Homo sapiens with 4 samples.

Results

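The respiratory chain genes of the count table were taken by symbol: every gene whose symbol began with NDUF, UQCR, COX4, COX5, COX6, COX7, COX8, ATP5, MT-ND, MT-CO, MT-CYB or MT-ATP, together with SDHA, SDHB, SDHC and SDHD. This rule took 111 of the 22494 features in the table. Of these, 98 are nuclear genes and 13 are encoded by mitochondrial DNA. The nuclear genes comprise 37 of complex I, 4 of complex II, 9 of complex III, 18 of complex IV and 15 of complex V. The other 15 share a symbol stem but are no subunits: 8 NDUFAF assembly factors of complex I, 3 further proteins and 4 pseudogenes, minor copies or read-through genes. The 13 mitochondrial genes comprise 7 of complex I, 1 of complex III, 3 of complex IV and 2 of complex V. CYC1, the cytochrome c1 of complex III, has none of these symbol stems and is part of a related list below.

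Poly(A) RNA was sequenced from 2 cell lines established from human endometrial cancer, HEC-1-A and RL-95-2. Each line was transfected either with a mimic of the tRNA-derived fragment tRF-20-S998LO9D or with the negative control of that mimic, and each of these 4 groups had 1 library. The study compared mimic with control, and neither a dose nor a time after transfection is given in the sources used here. Libraries held 33575882 to 46220053 counts. With 1 library against 1 in a line there is no replicate check and no p-value, and the 95% intervals given for ratios cover counting error only. All 5 epithelial markers examined and PAX8 were present in both lines. In RL-95-2 the endothelial gene CDH5 stood at 14.0 and 24.5 CPM in the control and mimic libraries, while PECAM1 and VWF, also endothelial, were at or near 0. Among fibroblast and muscle markers there, the collagen gene COL1A1 stood at 78.2 and 56.6 CPM and ACTA2 at 5.51 and 3.12 CPM. COL3A1 was at 2.43 and 1.83 CPM, PDGFRB was at 0.615 and 0.406 CPM, and DES had no count. CD68, on the list of blood and immune markers, was at 7.51 and 4.93 CPM. The other 3 of that list, among them PTPRC and LYZ, were at or near 0. The part of these genes in the results below was not tested.

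The respiratory chain passes electrons from NADH (complex I) and succinate (complex II) through ubiquinone, complex III and cytochrome c to oxygen at complex IV, and ATP synthase (complex V) uses the resulting proton gradient to make ATP. Subunits of complexes I, III, IV and V come from both the nuclear and the mitochondrial genome, while those of complex II are all nuclear. Nuclear subunit mRNAs are made one gene at a time in the nucleus, whereas mitochondrial mRNAs are cut from long transcripts that span almost the whole mitochondrial DNA.

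Levels are given as CPM, counts relative to the library size scaled with TMM factors, a correction for library composition, and ratios as log2 of mimic over control. A gene was treated as measured where the 2 libraries of the line averaged 1 CPM or more. In HEC-1-A this held for 99 of the 111 genes, and for 100 of them in RL-95-2. Among the rest, 10 stayed under 10 counts in every library, among them COX7B2 and the read-through gene NDUFC2-KCTD14, which had no count at all.

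Nuclear respiratory chain genes were mostly higher with the mimic in RL-95-2 and lay close to the median of all genes in HEC-1-A. In RL-95-2, 81 of 87 measured nuclear genes had a ratio above 0, where 50.1% of all 13151 measured genes did, and their median log2 ratio was 0.43 against 0.00 over all genes. In HEC-1-A, 69 of 86 had a ratio above 0, against 53.6% of 12981 genes, but the median was only 0.08 against 0.02. Counting intervals lay wholly above 0 for 76 and wholly below 0 for 4 of the nuclear genes in RL-95-2, where 39.9% and 40.5% of all genes did. In HEC-1-A these numbers were 39 and 5, against 29.5% and 23.5% of all genes.

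The 13 mitochondrially encoded genes had a lower median than the nuclear ones in each line. Their median log2 ratio was -0.07 in HEC-1-A, where 4 of 13 were above 0, and 0.15 in RL-95-2, where 11 of 13 were. The nuclear median exceeded the mitochondrial median by 0.15 in HEC-1-A and by 0.29 in RL-95-2. The spans of the 2 classes nevertheless overlapped: in RL-95-2, 26 nuclear genes exceeded the highest mitochondrial ratio, and in HEC-1-A none did. With trends of the ratio on GC content and transcript length removed, the RL-95-2 medians were 0.31 and 0.08 and the HEC-1-A medians 0.03 and -0.11, so the nuclear median of HEC-1-A came close to that of all genes. Without MT-ATP8, MT-ATP6, MT-ND4L and MT-ND4, whose frames share 46 or 7 bases with another, and with MT-CO3 kept, which shares 1 base, the difference in RL-95-2 was 0.14.

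Summed over genes, nuclear respiratory chain counts made up 0.628% of the HEC-1-A control and 0.658% of the HEC-1-A mimic library. They made up 0.545% of the RL-95-2 control and 0.821% of the RL-95-2 mimic library. The mitochondrial genes held 4.33% and 4.24% in HEC-1-A, against 2.84% and 3.29% in RL-95-2, in the same order. The RL-95-2 mimic library thus had the highest nuclear share and the RL-95-2 control the lowest, whereas the mitochondrial share separated the lines. These shares are of library totals without TMM scaling, unlike the ratios. With TMM scaling, summed nuclear levels rose from 5583 CPM (RL-95-2 control) through 6366 CPM (HEC-1-A control) and 6760 CPM (HEC-1-A mimic) to 7695 CPM (RL-95-2 mimic). On that scale the RL-95-2 libraries lay on either side of those of HEC-1-A. Mitochondrial counts per nuclear count went from 6.89 to 6.44 in HEC-1-A and from 5.21 to 4.01 in RL-95-2. In bulk RNA, a change in the number of cells of a type and a change in the RNA per cell cannot be told apart.

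**Figure D1:**
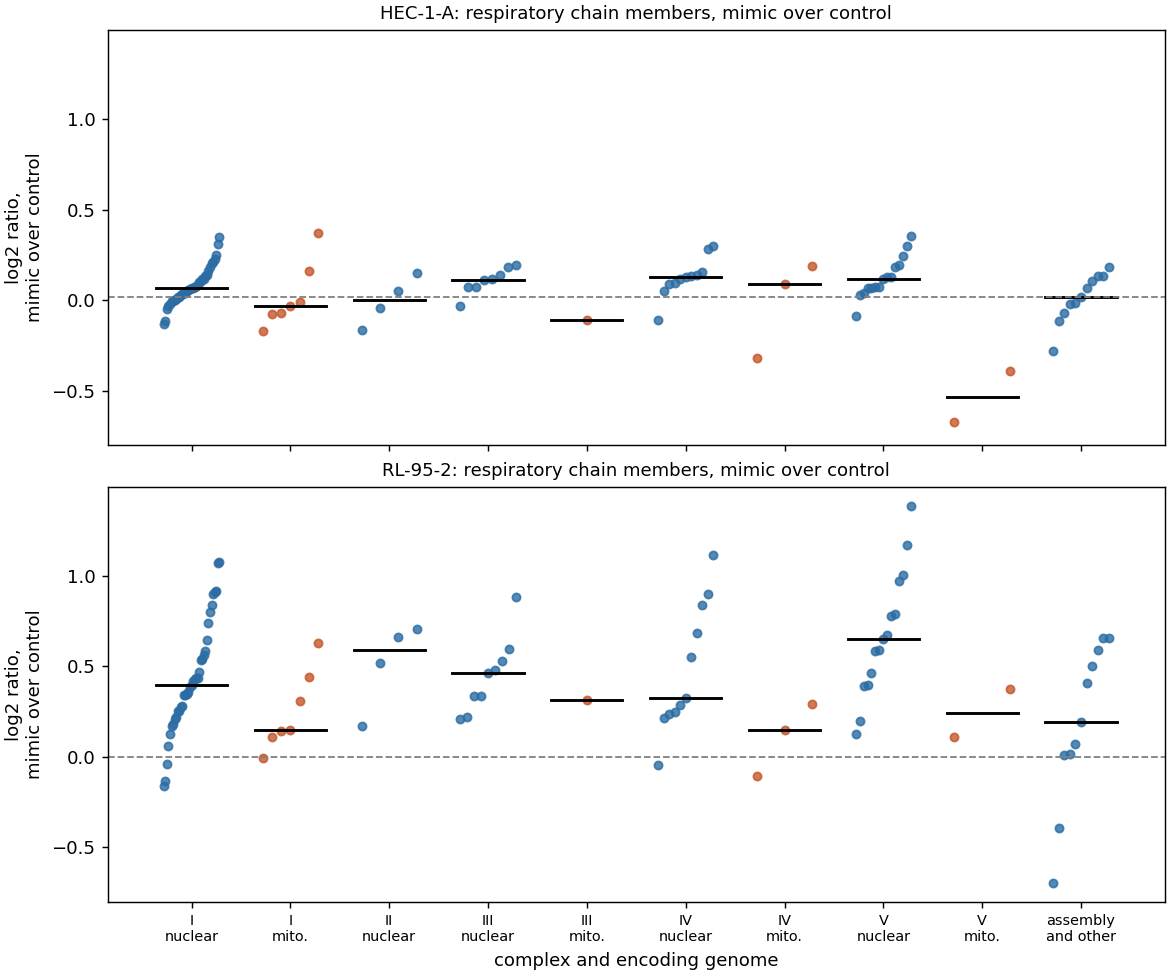
Log2 ratio of mimic over control for each measured gene, by complex and encoding genome, in HEC-1-A (top) and RL-95-2 (bottom); blue points are nuclear and orange points mitochondrial genes, black bars are medians and the dashed line is the median of all genes. The nuclear medians of complexes II, III and V in RL-95-2 are 0.59, 0.47 and 0.65, and every gene drawn in those 3 columns is above 0.

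The mitochondrial genes carried far higher levels than the nuclear ones on the scale that corrects for gene length, the deposited FPKM. The median over the 13 genes was between 1610 and 2820 FPKM in the 4 libraries, and over the 98 nuclear genes between 28.2 and 43.9 FPKM. MT-CO1, the catalytic subunit of cytochrome c oxidase, was the highest in each library, at 6240 to 8760 FPKM. MT-ND6, a membrane subunit of complex I and the only one of the 13 on the opposite strand, was the lowest at 240.0 to 449 FPKM. The highest nuclear gene in each library was ATP5B, the catalytic beta subunit of ATP synthase, at 299 to 518 FPKM.

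In HEC-1-A the 3 mitochondrial genes with the lowest ratios were neighbours on the mitochondrial DNA. MT-ATP8, which encodes a small membrane subunit of ATP synthase (chromosome M, 8366 to 8572), stood at 631.5 CPM (control) and 396 CPM (mimic), a log2 ratio of -0.67 (interval -0.70 to -0.64). In RL-95-2 it stood at 387 and 502 CPM, a ratio of 0.37 (0.35 to 0.40). The HEC-1-A control was the highest of the 4 libraries, and the lines moved in opposite directions.

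MT-ATP6, the subunit that forms the proton channel of ATP synthase with the c-ring (8527 to 9207), was at 3027 and 2308 CPM in HEC-1-A and at 2116 and 2283 CPM in RL-95-2. Its ratios were -0.39 and 0.11. MT-CO3, a core subunit of cytochrome c oxidase (9207 to 9990), followed with 4458 and 3576 CPM in HEC-1-A, against 2987 and 3309 CPM in RL-95-2, ratios of -0.32 and 0.15. Each of these 3 genes was therefore highest in the HEC-1-A control library. MT-ATP8 and MT-ATP6 share 46 bases, and reads from them cannot be told apart there. The shared bases are 22.2% of the length of MT-ATP8 and 6.75% of that of MT-ATP6, so the 2 values are not fully separate. How far this affects the 2 ratios was not tested. These bases are shown from GENCODE release 29 (GRCh38, plus strand, chrM:8527-8572). Capitals mark the start codon of MT-ATP6.
MT-ATP8 and MT-ATP6 overlap: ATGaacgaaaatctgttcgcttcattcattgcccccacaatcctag

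As a share of all mitochondrial counts, MT-ATP6 went from 6.90% to 5.30% in HEC-1-A and from 7.28% to 7.39% in RL-95-2. MT-ATP8 went from 1.44% to 0.910% in HEC-1-A and from 1.33% to 1.62% in RL-95-2. The shift was thus within the mitochondrial transcripts as well as relative to all genes. Each group had 1 library, and whether shifts of this size occur between 2 control libraries was not tested.

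The other mitochondrial genes of complex IV were higher in HEC-1-A with the mimic. MT-CO1 was at 14670 and 15650 CPM in HEC-1-A, a ratio of 0.09, and at 11150 and 10380 CPM in RL-95-2, a ratio of -0.10 that became 0.02 when scaled by library totals. MT-CO2, which takes the electrons from cytochrome c, was at 5118 and 5829 CPM in HEC-1-A and at 1899 and 2325 CPM in RL-95-2, ratios of 0.19 and 0.29. MT-CYB, the cytochrome b of complex III and its only mitochondrial subunit, was at 3650 and 3379 CPM in HEC-1-A and at 1378 and 1716 CPM in RL-95-2, ratios of -0.11 and 0.32. MT-CO2 and MT-CYB stood lower in both RL-95-2 libraries than in either HEC-1-A library, as did all other mitochondrial genes except MT-ATP8 and MT-ND5.

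The 7 mitochondrial subunits of complex I, all parts of its membrane arm, did not move together. MT-ND5 had the highest mitochondrial ratio in HEC-1-A, with 1698 and 2198 CPM and a ratio of 0.37, and it was at 1305 and 1770 CPM in RL-95-2, a ratio of 0.44. MT-ND6 had the highest ratio in RL-95-2, with 146 and 226 CPM and a ratio of 0.63 (interval 0.58 to 0.68), against 244 and 273 CPM and 0.16 in HEC-1-A. Those 2 genes adjoin each other on opposite strands. The strand setting of the counting is not given in the sources used here, so reads of MT-ND6 and of the transcript opposite it may not have been separated.

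MT-ND4L, a small membrane subunit, had the ratio -0.01 in HEC-1-A, against 0.00 in RL-95-2. MT-ND1, MT-ND2, MT-ND3 and MT-ND4 had ratios between -0.17 and -0.03 in HEC-1-A and between 0.11 and 0.31 in RL-95-2. In RL-95-2, removing GC and length trends put MT-ATP6, MT-CO3 and MT-ND2 at -0.06, -0.01 and 0.00. The signs of small mitochondrial ratios in RL-95-2 thus depend on that step.

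**Figure D2:**
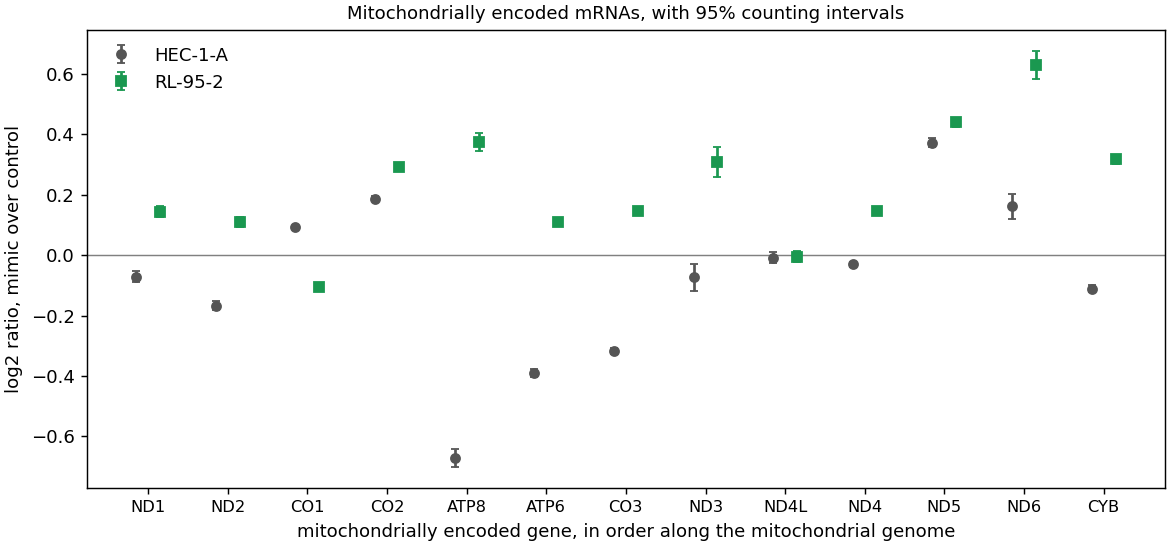
Log2 ratio of mimic over control (vertical axis) for the 13 mitochondrially encoded genes in their order along the mitochondrial DNA, with 95% counting intervals, in HEC-1-A (grey circles) and RL-95-2 (green squares). ATP8, ATP6 and CO3 are the lowest in HEC-1-A, at -0.67, -0.39 and -0.32, and the RL-95-2 ratio is the larger one for 12 of the 13 genes.

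Among the 37 nuclear genes of complex I, 34 had a ratio above 0 in RL-95-2 with a median of 0.40, and 30 in HEC-1-A with a median of 0.07. The 7 core subunits, which include those that carry the flavin and the iron-sulfur clusters, had medians of 0.25 in RL-95-2 and 0.07 in HEC-1-A. The 30 accessory subunits had medians of 0.43 and 0.07. At least 2-fold higher in RL-95-2 were 6 of the 100 measured genes, against 4.71% of all genes, and none of them was at least 2-fold lower, against 6.52%. In HEC-1-A no gene of the set was at least 2-fold higher or lower, where 0.871% and 0.239% of all genes were. The share at least 2-fold higher in RL-95-2 was thus close to that of all genes.

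Complex I held 2 of those 6 genes, both accessory subunits. NDUFA9, which lies at the junction of the membrane and matrix arms, was at 37.9 and 37.9 CPM in HEC-1-A and at 33.6 and 71.0 CPM in RL-95-2, a ratio of 1.08 (interval 0.99 to 1.17). NDUFB3, a subunit of the membrane arm, was at 20.6 and 23.5 CPM in HEC-1-A and at 16.4 and 34.6 CPM in RL-95-2, a ratio of 1.07 (0.94 to 1.21). For both genes the RL-95-2 mimic library was the highest of the 4 and the RL-95-2 control the lowest. The other 3 libraries lay at 33.6 to 37.9 CPM for NDUFA9 and, further apart, at 16.4 to 23.5 CPM for NDUFB3.

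Complex I also held genes with ratios below 0 in RL-95-2. NDUFS4, an accessory subunit at the NADH-oxidising end, was at 23.1 and 29.5 CPM in HEC-1-A, a ratio of 0.35, and at 24.6 and 21.9 CPM in RL-95-2, a ratio of -0.16. NDUFB9, a membrane arm subunit, had the ratio -0.13 in RL-95-2, which became 0.00 with library totals or the deposited FPKM, and 0.04 in HEC-1-A. NDUFS1, the largest core subunit, had -0.04 in RL-95-2 with an interval that includes 0 (-0.08 to 0.00), and 0.09 with library totals. NDUFB8, like NDUFB9 a membrane arm subunit, had the ratio 0.31 in HEC-1-A, against 0.17 in RL-95-2. NDUFAB1, the mitochondrial acyl carrier protein, was among the lowest in HEC-1-A at -0.13 but stood at 0.54 in RL-95-2, and NDUFV3, a small subunit of the flavoprotein part, had -0.12 and 0.12. The authors' FPKM of NDUFS1 and of ATP5A1 shifted against their counts by more than 1.25-fold within a line, which 2.53% of 10643 genes did. The ratios read for these genes are therefore those of their counts.

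All 4 subunits of complex II had ratios above 0 in RL-95-2, and 2 of 4 in HEC-1-A. SDHA, the flavoprotein that oxidises succinate, was at 167 and 149 CPM in HEC-1-A and at 112 and 177 CPM in RL-95-2, ratios of -0.16 and 0.66. SDHB, which carries the iron-sulfur clusters, was at 76.9 and 85.5 CPM in HEC-1-A and at 83.5 and 93.9 CPM in RL-95-2, ratios of 0.15 and 0.17. SDHC and SDHD, the membrane anchors, had ratios of 0.71 and 0.52 in RL-95-2 and of -0.04 and 0.05 in HEC-1-A. SDHB was the one of the 4 whose ratios in the lines lay closest together.

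All 9 nuclear genes of complex III in the set, those named UQCR, had ratios above 0 in RL-95-2, with a median of 0.47. In HEC-1-A, 7 of the 8 measured did, with a median of 0.11. UQCR10, a small subunit, had the highest ratio in RL-95-2, at 30.9 and 57.0 CPM and a ratio of 0.88, against 35.4 and 38.5 CPM and 0.12 in HEC-1-A. UQCRB, which helps form the ubiquinone site, had 0.59 in RL-95-2 and 0.07 in HEC-1-A. UQCRC1 and UQCRC2, the core proteins facing the matrix, had 0.34 and 0.22 in RL-95-2 and 0.11 and 0.18 in HEC-1-A. UQCR11 and UQCRQ, small subunits, had 0.34 and 0.47 in RL-95-2 and 0.07 and 0.14 in HEC-1-A. UQCRFS1, the Rieske iron-sulfur protein, was the one nuclear gene of the complex with a ratio below 0 in HEC-1-A, at -0.03, and had 0.48 in RL-95-2.

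In complex IV, 10 of 11 measured nuclear genes had a ratio above 0 in each line, with medians of 0.33 in RL-95-2 and 0.13 in HEC-1-A. COX6B1, a subunit on the intermembrane side where cytochrome c docks, was at 64.8 and 67.1 CPM in HEC-1-A and at 28.5 and 61.7 CPM in RL-95-2, a ratio of 1.11 (interval 1.02 to 1.22). Here the RL-95-2 control stood below the other 3 libraries, and the mimic library came close to the HEC-1-A level. NDUFA4, named for complex I but a subunit of complex IV, had the ratio 0.90 in RL-95-2 and 0.13 in HEC-1-A, and COX7B, a small membrane subunit, had 0.84 and 0.30. COX5A, which binds the matrix side of MT-CO1, had 0.68 in RL-95-2 and -0.11 in HEC-1-A. COX6A1 had 0.25 in RL-95-2, against 0.28 in HEC-1-A, and COX5B had 0.22 and 0.14. COX7A2, the form of subunit 7A present in most tissues, had -0.04 in RL-95-2 with an interval that includes 0 (-0.14 to 0.05), and library totals and log2(FPKM + 1) put it at 0.09 and 0.18.

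Both lines used the widely expressed isoforms of complex IV. COX4I1 was at 128.5 to 173 CPM over the 4 libraries, whereas COX4I2 had at most 1 count in a library. COX6A2, COX7A1 and COX8C, forms known from muscle or testis, had at most 4 counts, and COX6B2 had 5 to 9. COX6A1 was at 102.5 to 126.5 CPM and COX8A at 85.7 to 126 CPM. NDUFA4L2, a hypoxia-induced relative of NDUFA4, had 3 and 7 counts in HEC-1-A, against 39 and 16 in RL-95-2, where its fold between lines did not pass the test described below.

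All 15 nuclear genes of complex V had ratios above 0 in RL-95-2, with a median of 0.65, the highest of the 5 complexes, and 14 of 15 did in HEC-1-A, with a median of 0.12. ATP synthase held 3 of the 6 genes past 2-fold. ATP5A1 and ATP5B, the alpha and beta subunits of the catalytic head, had ratios of 0.59 and 0.65 in RL-95-2 and of 0.07 and 0.07 in HEC-1-A. For ATP5A1, whose FPKM shifted against its counts, log2(FPKM + 1) gave 1.34 in RL-95-2 but -0.54 in HEC-1-A. ATP5C1, the gamma subunit of the rotating stalk, had the second lowest ratio of the complex in RL-95-2, 0.20, after a c subunit gene, and ATP5F1, the b subunit of the stator, had 0.78 in RL-95-2 and 0.03 in HEC-1-A. ATP5E, the small epsilon subunit of the stalk, had 0.79 and the highest nuclear ratio of HEC-1-A, 0.35. ATP5I, the e subunit of the membrane part, was at 11.9 and 14.6 CPM in HEC-1-A and at 8.28 and 16.6 CPM in RL-95-2, a ratio of 1.0 (interval 0.82 to 1.20), against 0.30 in HEC-1-A. Exons of ATP5I overlap MYL5 on the other strand over 49.9% of their length and those of ATP5E overlap TUBB1 over 23.2%, so without a known strand setting their counts are uncertain.

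The c subunit of ATP synthase, which forms the rotating ring, is encoded by ATP5G1, ATP5G2 and ATP5G3, and their ratios spread widely in RL-95-2. ATP5G1 was at 46.8 and 49.0 CPM in HEC-1-A and at 26.1 and 68.3 CPM in RL-95-2, a ratio of 1.39 (interval 1.29 to 1.49). ATP5G3 was at 91.4 and 100.1 CPM in HEC-1-A and at 74.9 and 169 CPM in RL-95-2, a ratio of 1.17 (1.11 to 1.23). ATP5G2 was at 79.0 and 74.3 CPM in HEC-1-A and at 61.3 and 66.9 CPM in RL-95-2, a ratio of 0.13 (0.05 to 0.20). In the RL-95-2 mimic library ATP5G1 and ATP5G3 reached their highest level of the 4 libraries, while ATP5G2 stayed within the span of its HEC-1-A and RL-95-2 levels.

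With GC and length trends removed, ATP5G1, ATP5G3 and NDUFA9 remained past 2-fold in RL-95-2 and the other 3 genes did not. The promoter windows of ATP5G1 and ATP5G2 are shown to compare 2 genes for one protein with unlike ratios; they run from 250 bases before to 50 bases after the start in RefSeq (GRCh38.p14), ATP5G1 at chr17:48892537-48892836 on the plus strand and ATP5G2 at chr12:53676034-53676333 on the minus strand. Capitals mark the letters CGCANGCG, the core that NRF1, a transcription factor of many respiratory genes, binds, read on either strand.
ATP5G1 promoter: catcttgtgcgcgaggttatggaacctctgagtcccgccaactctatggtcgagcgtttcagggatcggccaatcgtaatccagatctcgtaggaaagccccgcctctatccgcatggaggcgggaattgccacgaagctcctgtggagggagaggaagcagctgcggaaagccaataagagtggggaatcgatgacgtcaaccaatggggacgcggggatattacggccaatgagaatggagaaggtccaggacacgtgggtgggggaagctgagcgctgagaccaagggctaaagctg
ATP5G2 promoter: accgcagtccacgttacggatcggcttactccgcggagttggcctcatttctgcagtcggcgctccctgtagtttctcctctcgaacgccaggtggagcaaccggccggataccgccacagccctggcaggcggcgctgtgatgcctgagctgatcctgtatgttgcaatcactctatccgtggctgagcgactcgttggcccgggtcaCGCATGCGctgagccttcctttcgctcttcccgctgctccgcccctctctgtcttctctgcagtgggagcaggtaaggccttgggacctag
The window of ATP5G2 held those letters and that of ATP5G1 did not, which is a description of the letters and not of binding.

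Among the genes that are no subunits, the ratios were mixed. The 8 NDUFAF genes, which help to build complex I, had medians of 0.35 in RL-95-2, with 7 of 8 above 0, and 0.06 in HEC-1-A, with 5 of 8. NDUFAF8 and NDUFAF5 had 0.66 and 0.66 in RL-95-2, and NDUFAF2 had -0.39, at 27.1 and 20.6 CPM. In HEC-1-A, NDUFAF8 and NDUFAF3 had 0.19 and 0.14, and NDUFAF6 had -0.11. ATP5S, known as coupling factor B, had the lowest nuclear ratio of HEC-1-A, -0.28, at 22.7 and 18.7 CPM, and 0.02 in RL-95-2. COX7A2L, which joins complexes III and IV into supercomplexes, had the lowest ratio in RL-95-2 among the genes measured there. It was at 83.5 and 51.6 CPM there, a ratio of -0.69 (interval -0.77 to -0.62), and at 72.7 and 72.1 CPM in HEC-1-A, a ratio of -0.01. Below 1 CPM, NDUFA4L2 had a lower ratio, -1.49 (-2.56 to -0.75), on 39 and 16 counts.

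Over both lines, edgeR's quasi-likelihood test with the line as a block called none of the 101 tested respiratory chain genes and 0.0% of 15957 genes at a Benjamini-Hochberg adjusted p of 0.05. None of the 101 had an unadjusted p under 0.05, which 1.05% of all genes had, and the lowest was 0.051 for ATP5E (log2 0.57, SE 0.24, adjusted p 0.9999, 2 libraries per transfection, higher in 2 of 2 lines). DESeq2 gave 1 respiratory chain gene an unadjusted p under 0.05 and called none; limma-voom gave and called none. Ratios were above 0 in both lines for 64 of the 86 nuclear genes measured in both, against 23.9% of 11913 genes. For 16 they were above 0 in RL-95-2 alone and for 5 in HEC-1-A alone, where 26.0% and 29.2% of all genes were, and 1 was above 0 in neither, against 20.9%. Of the 13 mitochondrial genes, 3 were above 0 in both lines, 8 in RL-95-2 alone and 1 in HEC-1-A alone.

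Across the 86 nuclear genes the ratios of HEC-1-A and RL-95-2 had 0.07 as Pearson r and 0.005 as Spearman rho, as a description over genes that share their 4 libraries. The HEC-1-A ratios spanned little, with quartiles of 0.02 and 0.14, so their order rests on small differences. The correlation over all genes was not computed. The RL-95-2 ratio was the larger one for 76 of the 86 nuclear and 12 of the 13 mitochondrial genes, against 49.0% of all genes. The difference between the lines in their response could not be tested, as 1 library per line and transfection leaves no residual for it.

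Levels between the lines were compared in the same edgeR fit, where the libraries of a line are its mimic and control library and the spread includes their response. Called at an adjusted p of 0.05 were 14 of the 101 tested genes: 9 higher in RL-95-2, where 18.3% of all genes were called, and 5 lower, where 16.7% were. The counts of the set lay below those shares in each direction, as a description with no test. MT-CO2 and MT-CYB were the only mitochondrial genes called, both lower in RL-95-2, with log2 fold changes of -1.38 (SE 0.28, adjusted p 0.012) and -1.19 (SE 0.29, adjusted p 0.022) by edgeR. All 13 mitochondrial genes had negative fold changes, with a median of -0.39, against a median of -0.02 over the 88 nuclear genes tested.

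The nuclear genes called lower in RL-95-2 were NDUFAF3, an assembly factor of complex I, NDUFAF8 and COX5B, a subunit on the matrix side of complex IV. NDUFAF3 was at 91.9 and 101 CPM in HEC-1-A and at 36.6 and 37.0 CPM in RL-95-2, a log2 fold change of -1.39 (SE 0.23, edgeR adjusted p 0.0049). NDUFAF8 and COX5B had -0.94 and -0.74, and the call for COX5B was lost when scaled by library totals and without a filter on low counts. With RLE size factors 12 of the 101 genes were called in place of 14. Genes called higher in RL-95-2 included, besides UQCRH and UQCRHL, NDUFAF2 (1.19), NDUFAF6 (1.1), UQCRC2 (1.03), NDUFA6 (0.90), NDUFV3 (0.89) and ATP5L (0.72). The edgeR adjusted p was near the cutoff for ATP5L (0.048), UQCRHL (0.047) and COX5B (0.043). UQCRC2 was at 85.4 and 96.9 CPM in HEC-1-A and at 172 and 200.1 CPM in RL-95-2, so the lines did not overlap.

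**Figure D3:**
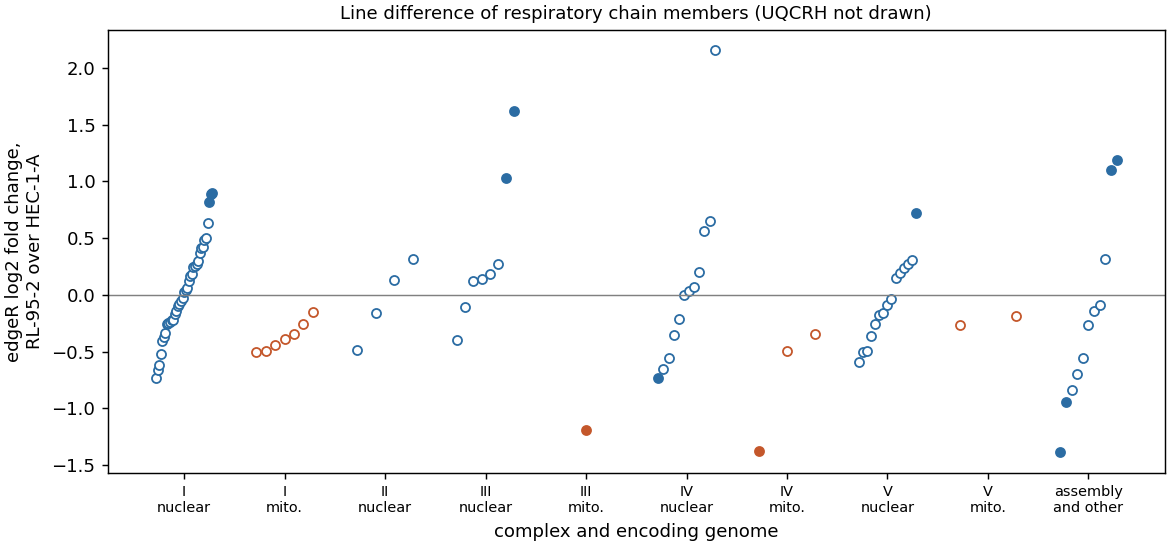
EdgeR log2 fold change of RL-95-2 over HEC-1-A (vertical axis) for each tested gene by complex and encoding genome, with filled points for genes called at an adjusted p of 0.05 and open points for the others; blue points are nuclear and orange points mitochondrial. UQCRH, at 10.46, lies outside the range and is not drawn, and all 13 mitochondrial points are below 0.

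UQCRH, the acidic hinge subunit of complex III that helps cytochrome c dock, differed most between the lines. It had 0 and 5 counts in the HEC-1-A control and mimic libraries and 2810 and 5132 counts in RL-95-2, where it stood at 72.0 and 104 CPM. In the RL-95-2 libraries it was the highest of the UQCR genes per length, at 103 and 164 FPKM. Between the control libraries it was at least 795-fold higher in RL-95-2, with the HEC-1-A library placed at a floor of 3 counts (0.0905 CPM). Between the mimic libraries it was 932-fold higher (interval 399 to 2870). EdgeR gave an adjusted p of 8.1e-05, and its fitted log2 fold change of 10.46 rests on the prior count. The other nuclear subunits of complex III were present in HEC-1-A, with UQCRQ, for example, at 58.8 and 64.9 CPM.

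UQCRHL, a copy of UQCRH on the same chromosome (GRCh38 chromosome 1, 15807169 to 15809348, minus strand), had 34 and 53 counts in HEC-1-A, against 123 and 180 in RL-95-2. Its log2 fold change was 1.62 (SE 0.50, edgeR adjusted p 0.047). The coding sequences of the copies are shown because the letters of reads that lie wholly within them are distinct only where they differ. They come from GENCODE release 29 (GRCh38), match in 269 of 273 bases and differ at the 4 bases in capitals. The parts of the transcripts outside the coding sequence were not compared.
UQCRH coding sequence: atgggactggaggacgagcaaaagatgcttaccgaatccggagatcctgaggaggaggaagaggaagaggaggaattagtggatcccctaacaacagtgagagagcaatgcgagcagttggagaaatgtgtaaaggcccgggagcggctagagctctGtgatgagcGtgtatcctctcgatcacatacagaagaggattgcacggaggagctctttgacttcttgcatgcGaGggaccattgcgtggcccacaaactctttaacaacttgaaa
UQCRHL coding sequence: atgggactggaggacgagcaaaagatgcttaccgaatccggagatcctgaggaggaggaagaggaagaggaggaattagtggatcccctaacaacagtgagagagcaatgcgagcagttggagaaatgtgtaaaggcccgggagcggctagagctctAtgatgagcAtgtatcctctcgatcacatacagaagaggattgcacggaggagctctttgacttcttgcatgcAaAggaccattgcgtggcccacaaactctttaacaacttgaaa
How reads that match both copies were counted is not given in the sources used here, so counts of UQCRHL may include reads of UQCRH. How that affects the counts of UQCRH was not tested.

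The neighbour of UQCRH differed in the same way. LRRC41, a leucine-rich repeat gene, starts 23 bases from UQCRH on the opposite strand in GENCODE. It had 56 and 46 counts in HEC-1-A, against 3097 and 4774 in RL-95-2, 46.9-fold (interval 36.1 to 62.3) and 94.2-fold (70.5 to 129) higher in the control and mimic libraries. The genes on either side, RAD54L with 913 and 1278 counts and NSUN4 with 708 and 1121, were present in HEC-1-A. The annotated spans of LRRC41 and RAD54L overlap on opposite strands, so some LRRC41 counts may be reads of RAD54L. Low counts were seen for the 2 genes that share a start region and not for those flanking them. LRRC41, RAD54L and NSUN4 were chosen after their values were seen, and the cause of the difference was not tested. The shared start region is shown from RefSeq (GRCh38.p14, plus strand, chr1:46303448-46303747), with capitals marking the letters of the ETS factor motif CCGGAAG, here as its reverse complement.
UQCRH promoter: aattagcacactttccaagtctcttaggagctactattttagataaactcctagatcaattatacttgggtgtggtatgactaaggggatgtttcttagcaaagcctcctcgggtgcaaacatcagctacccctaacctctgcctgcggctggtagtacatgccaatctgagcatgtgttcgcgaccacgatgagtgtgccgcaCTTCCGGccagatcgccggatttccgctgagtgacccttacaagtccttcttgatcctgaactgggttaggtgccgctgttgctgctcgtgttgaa

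**Figure D4:**
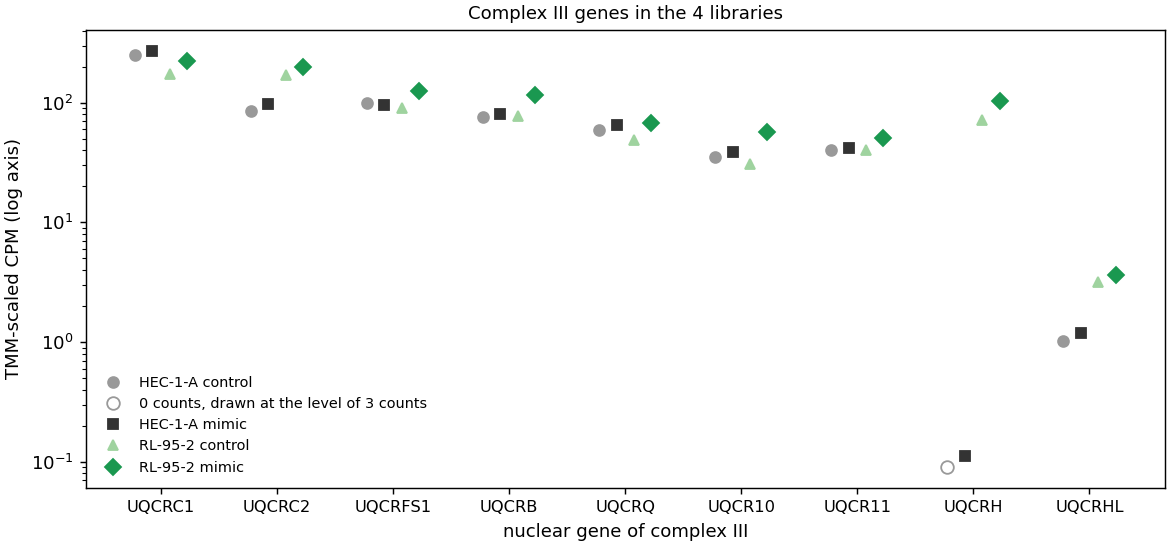
TMM-scaled CPM (log axis) of the nuclear genes of complex III taken by the symbol rule in the 4 libraries, with one symbol per library. The open circle stands for 0 counts, drawn at the level of 3 counts. UQCRH is at 72.0 and 104 CPM in RL-95-2 and at or under 5 counts in HEC-1-A. The other UQCR genes except the copy UQCRHL are between 30.9 and 270.2 CPM in all libraries.

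Promoter windows of 300 bases were matched in RefSeq (GRCh38.p14) for 63 of the measured nuclear subunit genes, and 3 short motifs were searched on both strands. Each of the 63 genes gave a single window. The promoters they are set beside are all distinct windows, limited neither to a single window per gene nor to measured genes, so the sets are unlike. The NRF1 core CGCANGCG was in 22 of 63 windows (34.9%), against 3478 of all 34796 promoters in the table. The ETS motif CCGGAAG, bound by GABPA among others, was in 19 (30.2%) against 10.2%, and the YY1 motif AAGATGGCG in 8 (12.7%) against 1.76%. The last letters of the ETS motif, AAG, are also the first of the YY1 motif, and a window may hold several motifs, as that of NDUFA9 does. In RL-95-2 the median ratio with and without the motif was 0.44 and 0.44 for NRF1, 0.47 and 0.42 for ETS and 0.36 and 0.47 for YY1. These medians are a description with no test. The window of NDUFA9 (chr12:4648864-4649163, plus strand) is shown as one that holds the NRF1 and YY1 letters, in capitals.
NDUFA9 promoter: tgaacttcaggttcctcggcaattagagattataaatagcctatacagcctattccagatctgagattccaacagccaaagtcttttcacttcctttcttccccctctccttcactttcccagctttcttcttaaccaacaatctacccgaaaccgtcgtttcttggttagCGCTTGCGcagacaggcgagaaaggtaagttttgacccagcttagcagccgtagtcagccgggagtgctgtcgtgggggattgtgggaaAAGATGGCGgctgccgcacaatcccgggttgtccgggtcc

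Genes that serve the chain without being taken by the symbol rule were described in 4 lists. In RL-95-2 the medians of 3 of them were above that of all genes and below that of the nuclear subunits, as a description with no test, and the median of the nuclear regulators was below both. Of 43 further assembly factors, 35 had a ratio above 0 in RL-95-2, with a median of 0.29, and 24 in HEC-1-A, with a median of 0.02. The highest in RL-95-2 were BCS1L, which inserts the Rieske protein into complex III, at 0.89, and SCO2, a copper carrier of complex IV, at 0.83. COX19, which is also part of copper delivery to complex IV, was at 49.0 CPM (control) and 20.7 CPM (mimic) in RL-95-2, a ratio of -1.24, and at 16.9 and 14.9 CPM in HEC-1-A, a ratio of -0.18. SDHAF4, an assembly factor of complex II, had -0.73 in RL-95-2 although all 4 complex II subunits were above 0 there. In HEC-1-A the highest were PET100 and COX17, which serve complex IV, at 0.57 and 0.30, and the lowest was COA5, also of complex IV, at -0.32. In RL-95-2 those 3 had 0.68, 0.10 and -0.18.

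Of 16 genes for cytochrome c and other electron carriers, 14 were above 0 in RL-95-2, with a median of 0.28, and 11 in HEC-1-A, with a median of 0.04. The list includes CYC1, which is itself a subunit of complex III that the symbol rule does not take. PDSS1, which starts the side chain of ubiquinone, was at 8.84 and 22.3 CPM in RL-95-2, a ratio of 1.33, and at 11.6 and 9.25 CPM in HEC-1-A, a ratio of -0.32. Among the other genes of ubiquinone synthesis, COQ3 had 0.67 in RL-95-2 and 0.58 in HEC-1-A, COQ4 had 0.66 and -0.22, COQ5 had -0.37 and 0.21, and COQ8A had -0.35 and -0.10. ETFDH, which passes electrons from fatty acid oxidation to ubiquinone, had 0.64 and 0.37. Of 28 genes of mitochondrial transcription and mRNA care, 23 were above 0 in RL-95-2, with a median of 0.24, and 16 in HEC-1-A, with a median of 0.02. HSD17B10 and ELAC2, which trim transfer RNAs out of mitochondrial transcripts, had 0.91 and 0.88 in RL-95-2. LRPPRC, which stabilises mitochondrial mRNAs, had -0.48 there, at 348.5 and 250.2 CPM, while SLIRP, its binding partner, had 0.41 there and 0.34 in HEC-1-A. SUPV3L1, a mitochondrial RNA helicase, had -0.34 in RL-95-2 and 0.03 in HEC-1-A, and FASTKD3 had 0.74 and 0.24. TFB1M, which methylates mitochondrial ribosomal RNA, had 0.21 and -0.20. POLRMT, the mitochondrial RNA polymerase, had -0.23 as the lowest ratio of this list in HEC-1-A, but 0.29 in RL-95-2.

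Of 14 nuclear regulators of these genes, 6 had a ratio above 0 in RL-95-2, with a median of -0.09, and 6 of 13 measured did in HEC-1-A, with a median of -0.01. MYC was at 311.5 CPM (control) and 124 CPM (mimic) in RL-95-2, a ratio of -1.32, and at 461 and 451 CPM in HEC-1-A. GABPB1, the partner of GABPA, had -0.65 in RL-95-2 and 0.30 in HEC-1-A, and HIF1A had -0.40 and 0.43. Ratios above 0 in RL-95-2 were those of TFEB (0.42), PPARGC1B (0.30), HCFC1 (0.30), PPRC1 (0.28), CREB1 (0.25) and GABPA (0.06). YY1 and SP1 had -0.27 and -0.12 in RL-95-2, where SP1 turned to 0.01 with library totals, and -0.12 and -0.06 in HEC-1-A. PPARGC1A, a coactivator of mitochondrial biogenesis, was at 14.5 and 11.6 CPM in RL-95-2 and at 0.181 and 0.112 CPM in HEC-1-A. The regulators thus had ratios of both signs in RL-95-2, and edgeR called no gene of these 4 lists over both lines.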

How the data were processed

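RNA-seq libraries from 2 lines with 2 transfections (4 in all) were grouped by their labels. Raw counts and FPKM, both per gene, are the values the authors deposited. The submitters' processing notes name HISAT2, CASAVA and the GRCh38 (hg38) build. Which counter, which annotation and which strand setting were used is not given in the sources used here. Respiratory chain genes, related lists and the rule for naming genes were chosen with earlier results of these data known.

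Counts were tested over all genes that passed edgeR's filter on low counts, with edgeR 4.0.16 in R 4.3.3 (TMM scaling, quasi-likelihood test, a model of line and transfection, Benjamini-Hochberg adjustment at 0.05). The libraries were paired by the cell line their labels name. The fit left 1 residual degree of freedom and a prior of 5.44, so a p-value measures no more than the spread among the 4 libraries, which may be technical, as separate cultures are not stated in the labels. Within a line, log2 ratios of TMM-scaled CPM used a prior count of 2, and exact 95% intervals came from the pairs of counts. A library at 0 counts was placed at 3 counts for a bound on a fold. The procedure was tested on simulated data.

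Named were all 13 mitochondrial genes and the 4 SDH genes, the 2 highest and 2 lowest ratios per complex, other proteins and related list in each line among genes averaging 5 CPM or more, genes past 2-fold, isoform pairs, and the 5 genes of lowest p per direction between lines. Others were chosen after their values were seen: ATP5A1, ATP5B, ATP5L, NDUFS1, GABPA, PPARGC1A, HCFC1, PPRC1, CREB1, LRRC41, RAD54L and NSUN4. The values of a further gene are not reported here. Old ATP5 symbols were matched through RefSeq synonyms. Of 98 nuclear genes, 25 overlap an exon of another gene of the table, 15 of them over at least 10% of their exon bases. Alternatives used DESeq2 1.42.0, limma 3.58.1 (voom, and log2(FPKM + 1) and log2(FPKM + 0.1)), RLE size factors, library totals, other filters and other gene sets.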

Additional observations from a re-analysis of the deposited data

Results flagged for a closer look

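Ratios of mimic over control had opposite signs in the lines for 30 of the 99 genes measured in both. They were above 0 in RL-95-2 alone for 24 and in HEC-1-A alone for 6, where 26.0% and 29.2% of 11913 genes were. The set thus held a smaller share with opposite signs than all genes did. For 14 of the 30 the counting intervals excluded 0 in each line, and the like share over all genes was not computed. These 14 are given here with the median of the mitochondrial genes. With 1 library per line and transfection, none of these differences was tested. Given as the log2 ratio in RL-95-2 minus that in HEC-1-A, the difference was 1.05 for MT-ATP8, 0.50 for MT-ATP6 and 0.47 for MT-CO3, the 3 adjoining mitochondrial genes. It was 0.43 for MT-CYB, 0.38 for MT-ND3, 0.28 for MT-ND2, 0.22 for MT-ND1, 0.18 for MT-ND4 and -0.20 for MT-CO1. The ratio of MT-CO1 in RL-95-2 turned to 0.02 with library totals, and those of MT-ATP6, MT-CO3 and MT-ND2 to -0.06, -0.01 and 0.00 with GC and length trends removed. For the median of the 13 mitochondrial genes the difference was 0.22. Among nuclear genes it was 0.82 for SDHA, 0.79 for COX5A, 0.67 for NDUFAB1, 0.21 for ATP5G2 and -0.51 for NDUFS4, which was the one nuclear gene of these with the higher ratio in HEC-1-A.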

How the results depend on the processing

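Scaling by library totals moved the median of all genes in RL-95-2 from 0.00 to 0.13, and log2(FPKM + 1) and log2(FPKM + 0.1) moved it to 0.11 and 0.14. The nuclear median of RL-95-2 was then 0.56, 0.57 and 0.59, the mitochondrial median 0.28, 0.29 and 0.29, and 12, 12 and 13 genes of the set were at least 2-fold higher, where 6.59%, 2.68% and 6.20% of all genes were. On the FPKM scales these genes include ATP5A1, whose FPKM shifted against its counts. With RLE size factors the mitochondrial median of RL-95-2 was 0.13. With GC and length trends removed, an alternative chosen after seeing the data, the RL-95-2 medians were 0.31 and 0.08 and 3 genes of the set were at least 2-fold higher, against 3.86% of all genes. Without MT-ATP8, MT-ATP6, MT-ND4L and MT-ND4, also chosen after seeing the data, the mitochondrial median of RL-95-2 was 0.29 and the nuclear minus mitochondrial difference 0.14. The mitochondrial median of HEC-1-A was -0.090 with library totals, -0.10 with either FPKM scale and -0.11 with trends removed. With genes of at least 0.1 CPM included, 1 gene of the set was at least 2-fold lower in each line, where 1.64% (HEC-1-A) and 7.91% (RL-95-2) of all genes were. The nuclear median exceeded the mitochondrial one under each alternative run in each line.

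Over both lines, the count of calls stayed 0 under the 10 alternatives; genes of the set with an unadjusted p under 0.05 numbered 6 of 102 with log2(FPKM + 1) and 7 of 102 with log2(FPKM + 0.1), where 2.62% and 3.18% of all genes had one. Between lines, 12 to 18 genes of the set were called, up to 17.8% of those tested, where 28.2% to 41.6% of all genes were; the 18 came with no replicate block, that is with the transfection left out of the model. With no replicate block for the line, 0 genes were called over both lines. Leaving out a line or a transfection leaves 1 library against 1, so those ratios are given in the text with no test. Counting error is small at this depth, but how far repeat cultures differ is unknown and limits each within-line statement. Calls between lines rest on 1 residual degree of freedom.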
